A study of Mus musculus with 8 samples.

Results

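The genes described here are Cadps2 and its paralogue Cadps, the neurotrophin ligand genes Bdnf and Ntf3, and the receptor genes Ntrk2, Ntrk3 and Ngfr. Their members were the ATAC-seq peaks that overlapped the body of 1 of these 7 genes or the 20 kb on either side of it in mm10, with gene limits from GENCODE release M21. In all, 527 of the 434365 peaks in the 3 deposited lists were members, of which 185 of 152984 came from the wild-type (WT) list, 130 of 106974 from the heterozygous (het) list and 212 of 174407 from the mutant list. ATAC-seq maps open chromatin by the places where the Tn5 transposase inserts sequencing adapters, and a peak is a stretch where such reads pile up.

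The cells were granule neuron progenitors (GNPs) taken from 7-day-old (P7) mouse cerebella, of the strain given in the labels as C56Bl6/J, and no treatment was applied. GEO's labels name 3 genotypes of Chd7, a gene for an ATP-dependent chromatin remodeller: Chd7 wild type (3 libraries), Chd7 mutant (3) and Chd7 het (2). The study describes the mutant as Chd7 f/f and the het as Chd7 f/+ with the Atoh1-Cre transgene, which acts in granule cell precursors, and the WT as Chd7 f/f. It describes Chd7 protein left in the posterior lobe of the mutant cerebellum and gives lower recombination there as the probable reason. It calls the WT and mutant libraries technical replicates. Each deposited list was called on the pooled libraries of a genotype, so no value below has a replicate error, no difference was tested, and all intervals cover counting error over tags or peaks alone. After the removal of duplicates 50394313 tags remained for WT, 51030229 for mutant and 30923002 for het, and 1 tag was therefore worth 0.0198, 0.0196 and 0.0323 on a scale of 1000000 tags. Peaks lay at the start sites of all 7 granule cell progenitor markers examined (Atoh1, Pax6, Zic1, Zic2, Neurod1, Barhl1 and Mycn) in all 3 lists, with 36 to 96 tags at the summit in WT and 29 to 94 in mutant. Of 15 markers of other cerebellar cells, 10 had a start-site peak in WT, 8 in het and 10 in mutant, up to 50 tags in WT (Car8) and 52 in mutant. Summed over the 15, the tallest start-site peaks came to 253 tags in WT and 288 in mutant, and over the 7 progenitor markers to 483 and 508. The 3 markers of astrocytes and Bergmann glia came to 60 and 85 tags, with 18 in WT and 33 in mutant at Aqp4, 17 and 26 at Gdf10 and 25 and 26 at Gfap, and the endothelial gene Pecam1 had 10 and 17. Their part in the results below was not tested. Both oligodendrocyte genes (Sox10 and Mag), the Purkinje cell gene Pcp2 and the microglial genes Aif1 and Cx3cr1 had none in any list, so the defining markers of GNPs were present, and the share of other cells was not measured.

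Cadps2 and Cadps encode calcium-dependent activator proteins for secretion, which prime dense-core vesicles for release. Granule cells of the developing cerebellum make brain-derived neurotrophic factor (the product of Bdnf) and neurotrophin-3 (Ntf3), and Cadps2 promotes the release of both from these cells. Brain-derived neurotrophic factor binds the receptor tyrosine kinase TrkB (Ntrk2) and neurotrophin-3 binds TrkC (Ntrk3), while the receptor p75 (Ngfr) binds all neurotrophins with lower affinity. Bdnf is known for its many alternative first exons, each with a promoter of its own. Open chromatin at a promoter or in an intron says nothing by itself about how much RNA a gene makes.

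Sequences of Cadps2 sites in the upstream flank and introns where the WT and mutant lists differed are shown first, as examples and not as a full set, together with its promoter and the peak of Ntrk2 whose counting interval lay above equal height. All are from mm10 (GRCm38). The promoter is the RefSeq entry, 250 bases before to 50 after the start, read on the minus strand in the direction of transcription, and each of the other windows is plus-strand sequence from 75 bp before to 75 bp after a peak summit. Capitals mark matches, on either strand, to the letters of the motifs searched: the E-boxes CAGCTG and CAGATG, the nuclear factor I half-site TTGGCA, the cAMP response element TGACGTCA, AP-1 TGANTCA, Zic CAGCAGG, Gli GGGTGGTC, Sox ACAATGG and CTCF AGGGGGCG, none of which contains another.
Cadps2 promoter (chr6:23839372-23839671, minus strand): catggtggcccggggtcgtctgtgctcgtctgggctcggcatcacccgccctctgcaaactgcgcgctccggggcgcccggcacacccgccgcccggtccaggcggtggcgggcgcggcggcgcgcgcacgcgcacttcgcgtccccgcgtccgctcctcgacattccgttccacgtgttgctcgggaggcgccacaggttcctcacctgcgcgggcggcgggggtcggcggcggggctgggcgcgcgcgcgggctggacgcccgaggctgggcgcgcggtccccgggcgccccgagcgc
Upstream of Cadps2, WT peak without a mutant peak (chr6:23852210-23852360): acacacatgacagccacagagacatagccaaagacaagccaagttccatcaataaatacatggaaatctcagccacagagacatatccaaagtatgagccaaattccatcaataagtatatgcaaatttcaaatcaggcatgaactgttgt
Upstream of Cadps2, WT peak without a mutant peak (chr6:23853106-23853256): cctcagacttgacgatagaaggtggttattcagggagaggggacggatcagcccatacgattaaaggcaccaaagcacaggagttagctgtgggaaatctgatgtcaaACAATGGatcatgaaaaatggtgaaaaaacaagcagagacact
Upstream of Cadps2, WT peak without a mutant peak (chr6:23853677-23853827): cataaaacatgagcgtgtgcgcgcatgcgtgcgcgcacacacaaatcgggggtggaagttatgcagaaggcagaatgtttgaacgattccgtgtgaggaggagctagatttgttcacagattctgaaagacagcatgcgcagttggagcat
Upstream of Cadps2, paired peak lower in mutant (chr6:23854720-23854870): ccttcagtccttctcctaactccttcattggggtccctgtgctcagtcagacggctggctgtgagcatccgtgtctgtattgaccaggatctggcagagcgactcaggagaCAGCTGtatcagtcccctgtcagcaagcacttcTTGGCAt
Cadps2 intron 1, WT peak without a mutant peak (chr6:23820010-23820160): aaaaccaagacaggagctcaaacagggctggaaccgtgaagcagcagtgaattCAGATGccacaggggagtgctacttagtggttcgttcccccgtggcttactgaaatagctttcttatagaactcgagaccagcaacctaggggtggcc
Cadps2 intron 1, mutant peak without a WT peak (chr6:23758372-23758522): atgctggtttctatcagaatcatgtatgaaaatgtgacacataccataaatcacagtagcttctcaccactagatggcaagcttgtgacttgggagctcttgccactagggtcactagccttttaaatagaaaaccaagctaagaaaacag
Cadps2 intron 28, mutant peak without a WT peak (chr6:23287109-23287259): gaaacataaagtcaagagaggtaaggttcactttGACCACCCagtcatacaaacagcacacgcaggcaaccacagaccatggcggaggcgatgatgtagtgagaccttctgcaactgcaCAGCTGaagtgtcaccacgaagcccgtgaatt
Cadps2 intron 8, paired peak higher in mutant (chr6:23463042-23463192): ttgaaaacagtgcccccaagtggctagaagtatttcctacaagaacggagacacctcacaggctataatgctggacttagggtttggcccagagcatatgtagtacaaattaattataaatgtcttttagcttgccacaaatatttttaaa
Cadps2 intron 8, paired peak higher in mutant (chr6:23472865-23473015): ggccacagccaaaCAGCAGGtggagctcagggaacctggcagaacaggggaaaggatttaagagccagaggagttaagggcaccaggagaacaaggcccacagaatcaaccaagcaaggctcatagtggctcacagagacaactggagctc
Ntrk2 intron 16, paired peak higher in mutant (chr13:59092821-59092971): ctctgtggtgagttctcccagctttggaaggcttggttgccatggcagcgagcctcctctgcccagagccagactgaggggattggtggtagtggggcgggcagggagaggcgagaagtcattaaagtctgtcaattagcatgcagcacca

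Whether accessibility at Cadps2 differed between WT and mutant GNPs was examined first. The study compared read counts of each library over merged peaks, and it names Cadps2 among genes with ATAC-seq peaks decreased on loss of Chd7. Its text gives no positions for them, so they were not matched to the peaks below. Cadps2 (ENSMUSG00000017978.18, chromosome 6, 23262773 to 23839421, minus strand, 577 kb) held 45 WT peaks, 28 het peaks and 52 mutant peaks in its window of 616.6 kb. In pooled cells, fewer cells with a site open and a less open site in each cell cannot be told apart. Of the 45 WT peaks, 15 had no overlapping mutant peak (33.3%, Wilson 95% interval 21.4 to 47.9%), against 22.8% of all WT peaks. Of the 52 mutant peaks, 21 had no overlapping WT peak (40.4%, 28.2 to 53.9%), against 30.7% of all mutant peaks. Both intervals held the background share. In the remaining pairs the tallest peak of each list over a position was set against that of the other, as summit pileup (the number of extended tags over the summit, as deposited) per 1000000 tags. Over the 30 pairs at Cadps2 the median log2 ratio of mutant to WT was 0.23 (order-statistic 95% interval 0.09 to 0.36), and the median over all 116084 pairs was 0.07. The mutant peak was the higher in 23 of the 30 pairs, against 56.9% of all pairs. In 6 pairs it was 1.5-fold or more higher, against 7.43% of all pairs, and in 1 pair 1.5-fold or more lower, against 3.67%.

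Short peaks were common at Cadps2. The median WT peak there had 13 tags at its summit, against 16 over all WT peaks, and 23 of 45 WT peaks had a -log10 q (the peak caller's significance value) under 5 (51.1%, 37.0 to 65.0%), against 37.9% of all. Peaks at 5 or above are called strong here. In the mutant list the median was 14 tags and 24 of 52 peaks were under 5 (46.2%, 33.3 to 59.5%), against 37.2%. Height moved with both measures over the whole genome. Among WT peaks of under 15 tags, 46.9% lacked a partner in mutant, and at Cadps2 13 of 27 did. At 15 to 29 tags 7.65% lacked one, and at Cadps2 2 of 15. In the mutant list 60.1% of peaks under 15 tags and 13.8% at 15 to 29 tags were absent from WT, and at Cadps2 15 of 27 and 6 of 19. None of its 3 WT peaks and 6 mutant peaks with 30 or more tags was without a partner. The ratio also moved with the height of the WT peak. Over all pairs the median log2 ratio was 0.20 under 15 WT tags, 0.06 at 15 to 29 and 0.01 at 30 or more. WT height is also the denominator of the ratio, and a pair needs a listed mutant peak. Higher ratios in the lowest class are therefore partly built in. The Cadps2 medians in these classes were 0.38 (14 pairs), 0.06 (13 pairs) and 0.25 (3 pairs, all higher in mutant). The last class was too small to show how the Cadps2 ratio moved with height. The part of peak height in the Cadps2 shares and ratios was not tested.

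The promoter of Cadps2 was open in all 3 lists. A single peak covered the cluster of 7 annotated start sites (23839137 to 23839421), from 23838456 to 23839748 in WT with 49 tags at the summit and from 23838515 to 23839815 in mutant with 59, a log2 ratio of 0.25 (exact binomial 95% interval -0.32 to 0.83). The interval included equal height. Another peak with its summit 786 bp before the start had 32 tags in WT and 39 in mutant (log2 ratio 0.27, -0.44 to 0.99). Het had peaks at both places, with 73 and 44 tags, heights that were set by a longer extension of the tags and are not compared with the others. No list had a peak within 1 kb of the other annotated protein-coding start site, at 23587424. The promoter shown above had 54 CpG dinucleotides and a GC content of 79.7%, and none of the 9 motifs was found in it.

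In the upstream flank WT and mutant differed in the other direction. With summits between 12864 and 15374 bp before the start, the WT list held 4 peaks and the mutant list 1. The WT peaks at 23852203 to 23852354, 23853097 to 23853227 and 23853519 to 23853834 each had 13 tags at the summit, with -log10 q of 5.45, 5.69 and 5.94, and none had a mutant peak within 300 bp. The fourth, at 23854584 to 23854868, had 17 tags in WT and 10 in mutant, the only Cadps2 pair that was 1.5-fold or more lower in mutant (log2 ratio -0.78, -2.07 to 0.43). Het had peaks over the first and the fourth, with 13 and 15 tags. An absent peak does not give the mutant value, which may lie just under the caller's limit, and the lowest peak listed in the Cadps2 window had 8 tags in both lists. Beyond the 20 kb limit, the next peak on this side lay 27.9 kb before the gene and had 12 tags in WT and in mutant. On the other side the outermost peaks inside the limit had 14 tags in WT and 17 in mutant, and the first outside 9 and 11.

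Of 22 strong WT peaks at Cadps2, 5 were found in the WT list alone, with nothing in mutant within 300 bp (22.7%, 10.1 to 43.4%), against 4.96% of all strong WT peaks. The 3 upstream peaks were among them. The fourth, at 23820042 to 23820155 in intron 1 of the longest transcript, had 13 tags. The fifth, at 23249266 to 23249378, had 25 tags but lay in the downstream flank, 970 bp from the start of the neighbouring gene Fezf1, which encodes a zinc finger transcription factor. Within the gene body this was 1 of 14. In the opposite direction 3 of 28 strong mutant peaks had no WT peak within 300 bp (10.7%, 3.71 to 27.2%), against 9.84% of all. All 3 were intronic: 23758373 to 23758520 in intron 1 with 23 tags, 23286951 to 23287263 in intron 28 with 18 tags and 23713725 to 23713824 in intron 1 with 12 tags. None of these 3 had a het peak.

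In the introns the mutant list held 40 peaks and the WT list 31. The mutant list was also the longer in the introns of the 7 genes (153 and 125) and over all peaks (174407 and 152984). The mutant peak was the higher in 17 of 22 intronic pairs, against 56.9% of all pairs. All 6 pairs with a mutant peak 1.5-fold or more higher were intronic. The highest ratio was at 23463053 to 23463142 in intron 8, with 11 tags in WT and 22 in mutant (log2 ratio 0.98, -0.12 to 2.17). The same intron, of 52.7 kb, held another 2, with 26 and 41 tags at 23472805 to 23473039 (0.64, -0.10 to 1.41) and 24 and 37 tags at 23457746 to 23458019 (0.61, -0.17 to 1.41). Not every peak there was higher in mutant. A neighbour less than 1 kb away, at 23471891 to 23472149, had 24 tags in WT and 20 in mutant (-0.28). The remaining 3 had 11 and 20 tags in intron 16 (0.84), 12 and 21 in intron 6 (0.79) and 10 and 16 in intron 18 (0.66). Each of the 6 intervals included equal height. Intron 1, the longest at 150 kb, had a different balance, since 6 of its 11 WT peaks were without a mutant peak and 5 of its 10 mutant peaks without a WT peak, and the mutant peak was the higher in 3 of 5 pairs. The tallest WT peak of an intron, at 23280803 to 23281722 in intron 28, had 49 tags in WT and 57 in mutant (0.20, -0.38 to 0.78).

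**Figure D1:**
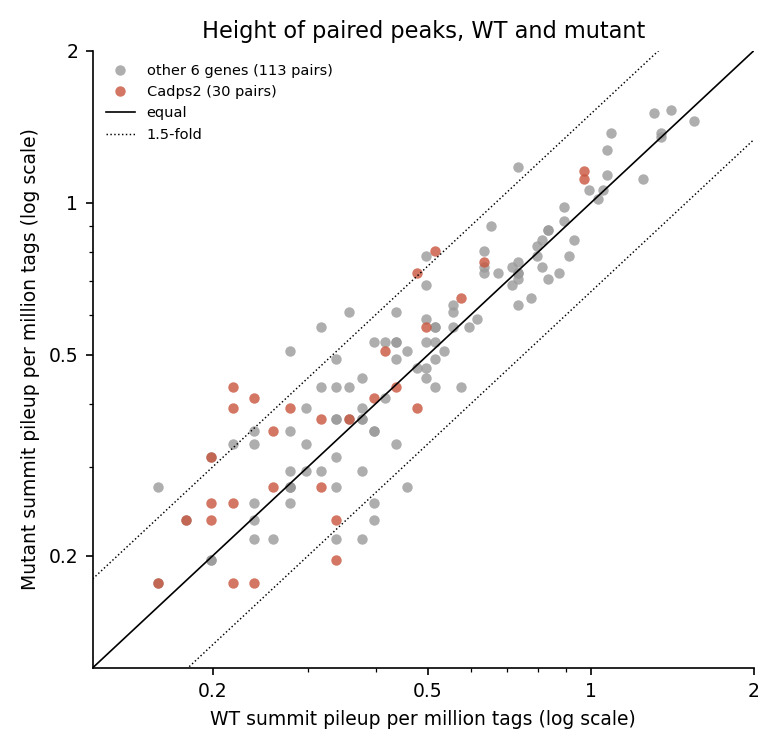
Summit pileup per 1000000 tags of the 143 paired peaks in WT (x axis) and mutant (y axis), both on log scales, with the line of equal height and dotted lines at 1.5-fold; red points are the 30 pairs of Cadps2 and grey points the 113 pairs of the other 6 genes. The Cadps2 points beyond the upper dotted line lie between 10 and 26 tags in WT, and the tallest pairs of all genes lie near the line of equal height.

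The paralogue Cadps (ENSMUSG00000054423.14, chromosome 14, 12372563 to 12823079, minus strand, 451 kb) had a window of similar peak density, with 7.14 WT peaks per 100 kb against 7.30 at Cadps2. It held 35 WT, 29 het and 44 mutant peaks. Of these, 8 WT peaks had no mutant peak (22.9%, 12.1 to 39.0%) and 14 mutant peaks had no WT peak (31.8%, 20 to 46.6%), both close to the shares of all peaks. The median log2 ratio over 27 pairs was 0.05 (-0.07 to 0.40), and the mutant peak was the higher in 14. The promoter peak at 12821234 to 12823267 had 66 tags in WT, 77 in mutant (log2 ratio 0.20, -0.29 to 0.70) and a peak in het. Away from the promoter, 3 pairs were 1.5-fold or more higher in mutant. These had 16 tags in WT and 29 in mutant in the upstream flank at 12839023 to 12839320 (0.84), 18 and 31 in intron 27 (0.77) and 25 and 40 in intron 6 (0.66). The 2 pairs 1.5-fold or more lower had 19 and 11 tags at 12472253 to 12472539 (-0.81) and 23 and 14 in intron 6 (-0.73). Of 31 strong mutant peaks 5 had no WT peak within 300 bp (16.1%, 7.09 to 32.6%), against 9.84% of all, which the interval held. The strongest, at 12410423 to 12410573 in intron 29, had 22 tags. In WT it was 1 of 28, against 4.96% of all, at 12573771 to 12573955 with 15 tags.

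The ligand gene Bdnf (ENSMUSG00000048482.14, chromosome 2, 109674700 to 109727007, plus strand, 52.3 kb) held 12 WT, 7 het and 11 mutant peaks, and its heights were nearly alike in WT and mutant. The log2 ratios of its 9 pairs ran from -0.30 to 0.27, with a median of 0.00 (-0.09 to 0.17), and no pair reached 1.5-fold. The peaks followed its start sites, and 7 of 8 groups of annotated protein-coding start sites had a WT and a mutant peak within 1 kb. The tallest peak, at 109677177 to 109678439 beside the start site at 109677032, had 78 tags in WT and 74 in mutant (log2 ratio -0.09, -0.57 to 0.38). The peaks at 109694842 to 109695111 and 109693226 to 109693990, near later first exons, had 68 and 52 tags in WT and 69 and 52 in mutant. The first start site, at 109674700, had 28 tags in WT and 32 in mutant and no het peak, while the last, at 109709383, had no peak in any list. The antisense gene Gm45346 had 2 peaks in each list within 1 kb of its start, so these peaks cannot be assigned to Bdnf alone. The 2 WT peaks without a mutant peak had 11 and 13 tags, and the 2 mutant peaks without a WT peak 22 and 8.

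The other ligand gene, Ntf3 (ENSMUSG00000049107.13, chromosome 6, 126101412 to 126166910, minus strand, 65.5 kb), held the fewest peaks, with 8 in WT, 4 in het and 7 in mutant. Its 2 groups of start sites differed. The downstream one, at 126164960, was covered by a peak in each list, with 32 tags in WT and 38 in mutant (log2 ratio 0.23, -0.49 to 0.96). At the upstream one, from 126166715 to 126166910, WT had a peak of 16 tags at 126166933 to 126167261 with a -log10 q of 2.70, and neither mutant nor het had a peak within 1 kb. The mutant list had instead a peak of 20 tags at 126167914 to 126168026, with its summit 1047 bp before the start and a -log10 q of 5.84, without a WT peak within 300 bp. The median log2 ratio over 5 pairs was 0.23 with a range of -0.07 to 0.44. An order-statistic interval needs more pairs than these.

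The TrkB gene Ntrk2 (ENSMUSG00000055254.15, chromosome 13, 58806569 to 59133970, plus strand, 327 kb) had a median WT peak of 26 tags and the lowest share of WT peaks lacking a partner. Of its 25 WT peaks 2 had no mutant peak (8%, 2.22 to 25%), against 22.8% of all. Of its 28 mutant peaks 4 had no WT peak (14.3%, 5.70 to 31.5%), against 30.7%. Both intervals held the share of all peaks. In het, 22 of the 25 WT peaks had an overlapping peak (88%, 70.0 to 95.8%), against 63.1% of all. All 22 strong WT peaks had a mutant peak within 300 bp, and all 22 strong mutant peaks a WT peak. Over all strong peaks 4.96% of WT and 9.84% of mutant had none, and the upper Wilson limit at Ntrk2 was 14.9% for both. The 23 pairs had a median log2 ratio of 0.05 (-0.07 to 0.14). The 3 promoter peaks had 37, 28 and 27 tags in WT and 39, 31 and 26 in mutant. A peak at 59092611 to 59093152 in intron 16 had 37 tags in WT and 60 in mutant (log2 ratio 0.68, 0.06 to 1.31). It was the only 1 of the 143 pairs of the 7 genes whose interval lay above equal height, and none lay below. Over all pairs these shares were 0.798% and 0.523%, so 1 in 143 was near the share of all pairs. A peak beyond the gene's end at 59144372 to 59144512 was also higher in mutant, with 14 and 26 tags (0.87), and a peak in intron 12 lower, with 20 and 12 (-0.76).

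The TrkC gene Ntrk3 (ENSMUSG00000059146.12, chromosome 7, 78175959 to 78738012, minus strand, 562 kb) is nearly as long as Cadps2 and held 51 WT, 33 het and 59 mutant peaks. Of these, 9 WT peaks had no mutant peak (17.6%, 9.57 to 30.3%), against 22.8% of all. In mutant, 17 peaks had no WT peak (28.8%, 18.8 to 41.4%), against 30.7%. Both intervals held the share of all peaks. Of its 31 strong WT peaks 0 stood more than 300 bp from any mutant peak (upper Wilson limit 11%), against 4.96% of all. Of 36 strong mutant peaks 3 had no WT peak within 300 bp (8.33%, 2.87 to 21.8%), against 9.84% of all. Each had 12 tags, and 2 of them lay at 78724406 to 78724533 and 78725332 to 78725495, less than 1 kb apart. The median log2 ratio of its 41 pairs was 0.06 (-0.02 to 0.14). The tallest peak, at 78680616 to 78681283, had 71 tags in WT and 78 in mutant (0.12, -0.36 to 0.60). At the start site at 78657724 the peak had 47 tags in WT and 43 in mutant (-0.15, -0.78 to 0.48). Near the start sites at 78578403 the tallest WT peak, at 78578224 to 78578419, had 26 tags. The tallest mutant peak there, at 78577342 to 78577496, had 35 tags. These peaks did not overlap, so their heights give no ratio. Of 5 pairs past 1.5-fold, 3 were higher in mutant, from 8 and 14 tags (0.79) to 11 and 17 (0.61), and 2 lower, with 20 and 13 (-0.64) and 17 and 11 (-0.65).

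The p75 gene Ngfr (ENSMUSG00000000120.6, chromosome 11, 95568818 to 95587735, minus strand, 18.9 kb) held 9 WT, 6 het and 11 mutant peaks, the densest of the 7 windows with 15.3 WT peaks per 100 kb. In WT 1 of 9 peaks had no partner (11.1%, 1.99 to 43.5%) and in mutant 1 of 11 (9.09%, 1.62 to 37.7%). Both intervals held the shares of all peaks, 22.8% and 30.7%. The median log2 ratio of its 8 pairs was 0.02 (-0.24 to 0.17), and no pair reached 1.5-fold. At the start site the peak at 95587471 to 95587904 had 42 tags in WT and 36 in mutant (-0.24, -0.92 to 0.44), and a peak in intron 1 had 37 and 32 (-0.23). The tallest peak, in intron 3 at 95574785 to 95575697, had 54 and 58 (0.09, -0.48 to 0.65).

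**Figure D2:**
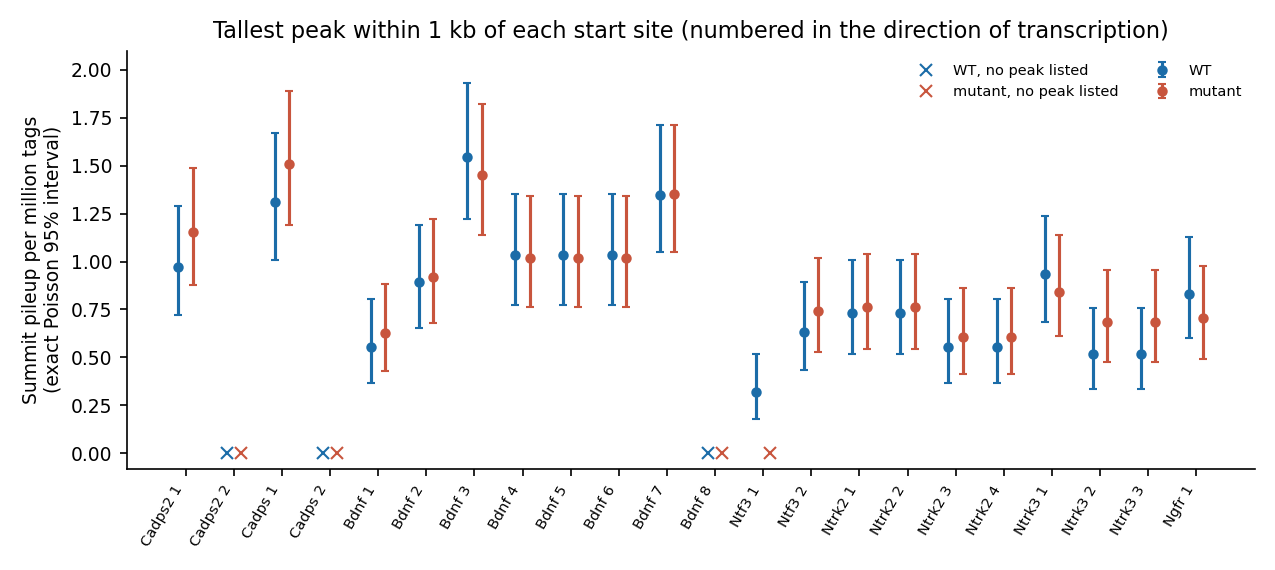
Summit pileup per 1000000 tags of the tallest peak within 1 kb of each group of annotated protein-coding start sites, in WT (blue) and mutant (red), with exact Poisson 95% intervals that cover counting error alone; crosses mark sites without a listed peak. Intervals of WT and mutant overlap at every site with a peak in both lists, but neighbouring sites can show the same peak. At Ntrk3 sites 2 and 3 the tallest WT and mutant peaks do not overlap each other. The first Ntf3 site has a peak in WT alone, and a mutant peak lies just past the 1 kb limit, with its summit 1047 bp before the start.

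By the tallest WT peak, the genes came in the order Bdnf (78 tags, exact Poisson 95% interval 61.7 to 97.3), Ntrk3 (71, 55.5 to 89.6), Cadps (66, 51.0 to 84.0), Ngfr (54, 40.6 to 70.5), Cadps2 (49, 36.3 to 64.8), Ntrk2 (46, 33.7 to 61.4) and Ntf3 (32, 21.9 to 45.2). The intervals of neighbours in this order overlapped throughout. In mutant the same peaks had 74, 78, 77, 58, 57, 40 and 38 tags. Every gene therefore kept its tallest WT peak in the mutant list, at a log2 ratio between -0.22 and 0.23. All 7 had 30 or more tags in WT, and of all 34875 WT peaks of that height 0.258% lacked a mutant peak.

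Over the 7 genes together, 40 of 185 WT peaks had no mutant peak (21.6%, 16.3 to 28.1%) and 61 of 212 mutant peaks had no WT peak (28.8%, 23.1 to 35.2%), near the shares of all peaks given above. The median log2 ratio of 143 pairs was 0.08 (0.03 to 0.14), with 87 pairs higher in mutant and 56 lower, against 56.9% of all pairs higher. Of the 143, 14 were 1.5-fold or more higher and 6 lower, against 7.43% and 3.67% of all. Without Cadps2 the shares were 17.9% (12.4 to 25%) and 25% (18.9 to 32.2%) and the median 0.05 (-0.02 to 0.10). Of the strong WT peaks of the 7 genes, 7 of 121 had nothing in mutant within 300 bp (5.79%), 5 of them at Cadps2, against 4.96% of all. For the strong mutant peaks it was 12 of 135 (8.89%), against 9.84%. Both shares were near those of all strong peaks.

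**Figure D3:**
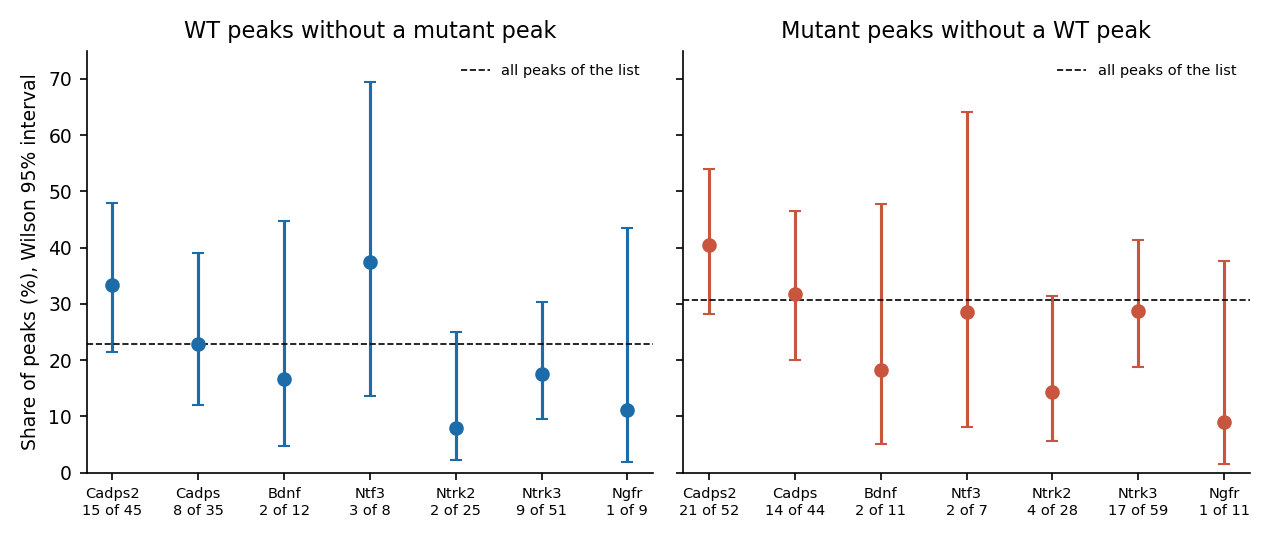
Share of peaks at each gene that had no overlapping peak in the other list, for WT (left) and mutant (right), in percent with Wilson 95% intervals and the counts under each name; the dashed line is the share over all peaks of the list. Cadps2 is above the line in both panels and Ntrk2 below it, and the intervals of all 7 genes reach the line in both panels.

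**Figure D4:**
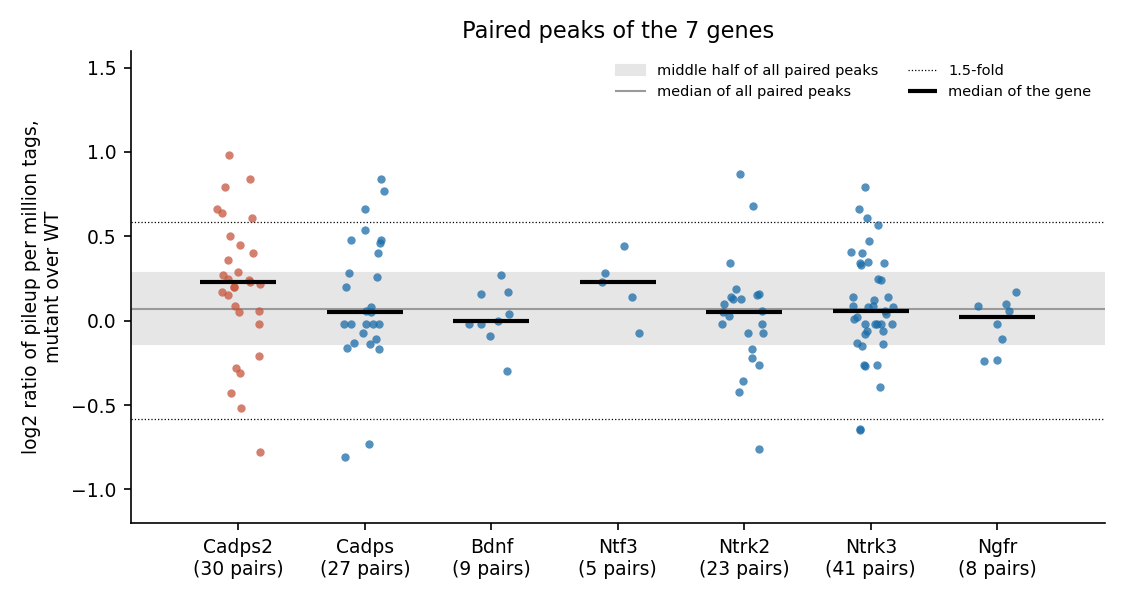
log2 ratio of summit pileup per 1000000 tags, mutant over WT, of every paired peak of the 7 genes (1 point per pair), with the median of each gene as a black bar, the median (grey line) and interquartile range (grey band) of all 116084 pairs, and dotted lines at 1.5-fold. The Cadps2 bar is at 0.23, the bars of Cadps, Bdnf, Ntrk2, Ntrk3 and Ngfr lie between 0.00 and 0.06, and the Ntf3 bar at 0.23 rests on 5 pairs.

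Where Cadps2 stood among other genes was described with the 1241 protein-coding genes that had at least 15 pairs in the same kind of window. Of these, 65 had a higher median ratio, 84 a higher share of WT peaks absent from mutant and 106 a higher share of mutant peaks absent from WT. The genes nearest to it in these 3 values together were Ppfia2, Maml2, Pard3b, Slc25a21 and Slc4a4, at distances of 0.315 to 0.419 standard deviations, with 21 to 31 pairs each and median ratios of 0.20 to 0.23. For Ntrk3 the same 3 numbers of genes were 649, 621 and 502, for Cadps 691, 351 and 368, and for Ntrk2 681, 1096 and 1085.

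The het list was compared with the others by presence and by rank alone. Of the WT peaks at the 7 genes 120 of 185 overlapped a het peak (64.9%, 57.7 to 71.4%), against 63.1% of all, and of the mutant peaks 127 of 212 (59.9%, 53.2 to 66.3%), against 58.7%. At Cadps2 it was 24 of 45 (53.3%, 39.1 to 67.1%) and 25 of 52 (48.1%, 35.1 to 61.3%). Of the WT peaks absent from mutant, 6 of 40 at the 7 genes and 1 of 15 at Cadps2 (the first of the upstream peaks) were in het, against 13.2% of all such peaks. For mutant peaks absent from WT it was 6 of 61 and 1 of 21, against 15.2%. When peaks within 300 bp were joined over the 3 lists, the 7 genes gave 222 regions, of which 110 were in all 3 lists, 26 in WT alone, 43 in mutant alone and 6 in het alone. At Cadps2 these were 59 regions with 22, 10, 15 and 3. In the regions held by all 3 lists, heights were ranked as a percentile within each list. The het percentile lay between those of WT and mutant in 37 of the 110 regions of the 7 genes (33.6%) and in 13 of the 22 of Cadps2 (59.1%), against 36.3% of all 87021. A wider gap between WT and mutant leaves more room for het between them, and the part of this in these shares was not tested. The upstream region of Cadps2 around 23854584 had percentiles of 28.4 (WT), 13.3 (het) and 2.20 (mutant). The intron 8 region around 23457697 had 49.8, 43.9 and 71.0. Het heights come from another alignment and extension, so genotype and processing cannot be told apart in these comparisons.

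Other genes of the 2 pathways were described in the same windows. The single genes named from them were chosen after their values were seen. A list of 16 further neurotrophin ligands, receptors and adaptors, all matched, held 237 WT and 277 mutant peaks, of which 51 (21.5%, 16.8 to 27.2%) and 85 (30.7%, 25.5 to 36.4%) had no partner, near the 22.8% and 30.7% of all peaks. Its 184 pairs had a median log2 ratio of 0.08 (0.02 to 0.13), against 0.07 over all pairs, and 12 of them were 1.5-fold or more higher in mutant, against 7.43% of all. The median was above 0 in 14 of the 16 genes. No such share over all genes is given beside this count, and the median of all pairs was itself above 0. The Trk adaptor gene Frs2 had a median of 0.24 over 9 pairs and the sorting receptor gene Sorcs1 0.03 over 31. A list of 21 genes of dense-core vesicle cargo, processing and release, all matched, lacked a partner for 43 of its 278 WT peaks (15.5%, 11.7 to 20.2%) and for 78 of its 314 mutant peaks (24.8%, 20.4 to 29.9%), shares below the 22.8% and 30.7% of all peaks, which lay outside these intervals. Its median WT peak had 20.5 tags, against 16 of all WT peaks, and the part of height in these shares was not tested. It had a median over 230 pairs of 0.08 (0.02 to 0.13). The median was above 0 in 10 of 21 genes, again without the share over all genes. Some genes of both lists had few pairs, such as Chgb with 2, so these counts are not compared. The gene of this list with the most peaks, Ptprn2, which encodes a vesicle membrane protein, had 67 pairs with a median of 0.14 (0.06 to 0.25). The priming factor gene Unc13c, by contrast, had a median of -0.10 (-0.28 to 0.57) over 18 pairs.

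The sequences of the members were set beside those of all peaks. The median GC content of the summit windows was 53.0% in the WT members and 52.3% in all WT peaks, and 52.3% and 51.7% in mutant. The E-box CAGCTG was in 48 of 185 WT member windows (25.9%) against 20.1% of all WT windows, and in 49 of 212 mutant windows (23.1%) against 20.1%. The E-box CAGATG was in 19.5% of WT members against 24.5%, and the nuclear factor I half-site in 22.7% against 18.4%. No member window held the cAMP response element, which 0.498% of all WT windows held. Of the windows shown above, the E-box CAGCTG was in the upstream paired peak and in the mutant peak of intron 28, which also held the Gli letters, a match found in 1 of 212 mutant member windows and 0.459% of all. The RefSeq promoter table held 13 entries for 6 of the 7 genes, all but Ntrk3. In 2 of the 7 Bdnf entries, those ending at 109674749 and 109677081, the letters AGGGGGCG were found, as in 6.07% of all 32851 promoters. A match is a description of letters, and binding was not measured.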

How the data were processed

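ATAC-seq was run on P7 GNPs of 3 Chd7 genotypes (3 WT, 3 mutant and 2 het libraries). The authors deposited 1 narrow peak list per genotype, called by MACS2 2.1.0.20150731 on pooled libraries at a q-value cutoff of 0.05, in mm10. The submitters' processing notes also name Trim Galore 0.4.1, Picard 1.139, STAR 2.5.0b and Bowtie 1.0.0. Per the file headers, WT and mutant tags came from a STAR folder and were not shifted (modelled fragment length 90 and 88 bp, tag size 107 and 76 bp), whereas het tags came from a bowtie folder and were shifted and extended to 200 bp, and the methods of the study describe the latter for all libraries. Tag size thus differed between WT and mutant along with genotype. The 2 cannot be told apart in the shares and ratios of WT and mutant peaks. The pileup at each summit is a signal of extended tags that the authors deposited without scaling. The fold enrichment over local background is a ratio deposited by the authors, as are the -log10 q-values, which depend on depth and extension. The column of p-values was not used.

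Peaks overlapping a gene body or 20 kb on either side (GENCODE release M21) were taken as members, by the rule given, and 0 columns were left without a group. Peaks counted as shared at an overlap of 1 bp or more. Ratios were taken over pairs of WT and mutant peaks that were each the tallest over the other, as pileup per 1000000 tags (50394313 in WT and 51030229 in mutant). Shares carry Wilson, medians order-statistic and single ratios exact conditional binomial 95% intervals, all for counting error only, as nearby peaks share cells and reads and PCR duplicates are not separate molecules. No test between genotypes was possible with 1 pooled list each. Het was compared by presence and by percentile among regions joined within 300 bp. Named were all 7 genes, their start-site peaks (within 1 kb), the tallest WT peak, peaks of a single list with a -log10 q of 5 or more, pairs differing 1.5-fold or more (up to 6 per gene and kind), and the 5 genes most like Cadps2. The 7 genes, the pathway and marker lists and the motifs were chosen with earlier results of these data known, and values of single genes in them are not all reported here. Alternatives were stricter q, reciprocal overlap of 50%, shared within 300 bp, gene bodies alone, lists of equal length, deposited fold enrichment and centring. The overlap and interval steps were tested on simulated data. Sequences were read from GRCm38 or the RefSeq promoter table with python 3.11.15, numpy 2.4.6, pandas 2.3.3, scipy 1.17.1 and pysam 0.24.0.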

Additional observations from a re-analysis of the deposited data

How the results depend on the processing

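Of 41 recomputed values, 32 stayed within the counting interval of the value reported. A change of sign was possible for the medians alone, and 0 of them changed sign. At the 7 genes, 13.2% of WT peaks were absent from mutant when both lists were restricted to strong peaks and 35.7% when a reciprocal overlap of 50% was required. The share of mutant peaks absent from WT was 22.2% and 43.9% in these settings, and 17.1% when each list was shortened to its strongest 106974 peaks. The share of WT peaks with a het peak was 77.7%, 52.4% and 82.2% in the same 3 settings. The shares of all peaks were not recomputed under the alternatives. Those given above, 22.8%, 30.7% and 63.1%, belong to the main setting and are no background for the shares of this section. The median log2 ratio of the 7 genes was 0.01 after centring on the median of all pairs. At Cadps2 the values stayed within their intervals in every setting: 28.1 to 46.7% for WT peaks absent from mutant, 30.8 to 53.8% for mutant peaks absent from WT, and 0.16 to 0.24 for the median log2 ratio, lowest with deposited fold enrichment and after centring. Between strong peaks alone its interval was -0.02 to 0.29. Pairing each WT peak with the tallest overlapping mutant peak, chosen after seeing the data, gave the same medians. No paired analysis was possible because each deposited list pools the libraries of a genotype, and leaving out single libraries could not be run for the same reason. Depth limits the short peaks most, since a pair of 11 and 22 tags has an interval that includes equal height.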

Other observations

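Some start sites of neighbouring genes lie inside the windows. In the Cadps2 window, the genes Rnf133 and Rnf148, nested in Cadps2, had no peak within 1 kb of their starts in any list, while Fezf1 had 2 WT and 2 mutant peaks and no het peak. In the Ntrk2 window, the neighbouring start sites of the long non-coding RNA genes Gm34354 and Gm34307 had 1 peak within 1 kb in each list, with 19 tags in WT and 19 in mutant. The antisense gene 4921513I08Rik within Ntrk3 had 1 such peak in WT, 1 in het and 2 in mutant.

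Between introns 6 and 18 of Cadps2, the mutant list also held peaks of 8 to 11 tags with neither a WT nor a het peak. Among them was 1 in exon 13 at 23410815 to 23410959 with 10 tags. The WT list held peaks of 9 tags there, in introns 6 and 8, with neither a mutant nor a het peak. Of all mutant peaks under 15 tags 60.1% were absent from WT, and at Cadps2 15 of 27. Het had 3 regions of its own at Cadps2, with 9, 11 and 12 tags, all in intron 1.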
